A study of Mus musculus with 2 samples.

Results

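Basement membranes are thin sheets of matrix that underlie epithelia and vessels and surround muscle, fat and nerve cells, and several of their proteins also form the pericellular coat of chondrocytes. Laminin trimers and a network of collagen IV are their main polymers, nidogens and the heparan sulphate proteoglycans perlecan and agrin join them, and cells hold on to them through dystroglycan and integrins. In cartilage, which has no vessels of its own, perlecan, collagen IV, laminins and nidogens are known components of the pericellular matrix, while the perichondrium around it holds vessels, fibroblasts and tendon attachments.

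The genes described here were taken from a list of 37 that encode collagens IV, VII, VIII, XV, XVII and XVIII, laminin chains, nidogens, perlecan and associated proteins. All 37 had a value, among 18193 genes measured in all. They were chosen by name, and the brightest probe set on average, of the 69 tied to 1 of these genes alone, stands for each gene. RNA was measured on Affymetrix Mouse Genome 430 2 arrays in rib chondrocytes from mice carrying the V156D mutation of Matn1, the gene of matrilin-1 (1 array), and from wild-type mice (1 array), both at 5 days of age. The mutation is a knock-in, and the sources used here do not give the strain, the sex or whether the mutants carried 1 or 2 mutant alleles. Ribs were dissected and the cells released with collagenase, and RNA came from a pool of cells of 5 littermates according to the design text, so the spread between animals was not measured. With 1 array per genotype there is no test, and higher and lower describe the mutant array against the wild-type one.

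The arrays had a median intensity of 55.1 for the mutant and 54.3 for wild type over 45037 probe sets. Cartilage markers were bright in both, with Col2a1, the main cartilage collagen, at an intensity of 29057 in the mutant and 27997 in wild type. The 10 chondrocyte markers summed to an intensity of 121559 in the mutant and 120123 in wild type, with a median log2 ratio of 0.03. Of the 10, 7 were above 0, the highest being Chad at 0.07. Sox9 was lowest at -0.29, with 2555 in the mutant and 3134 in wild type, and Matn3 had -0.15. Matn1, the mutated gene, is in this list and had -0.01. Transcripts of fibrous tissue, vessels and the sex chromosomes did differ between the arrays, and their values are given below beside the genes they bear on.

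The submitters name MAS5, but the values do not settle how they were summarised, and ratios of dim probe sets may be compressed. A gene was counted as measurable when its mean log2 signal reached a floor at the 50th percentile of all probe sets, an intensity of 54.6. Of the 37 genes, 30 lay at or above this floor and 7 below it, namely Col4a3, Col4a6, Lama1, Lamc3, Fras1, Frem1 and Frem2. Among the 30, 22 had log2 ratios above 0, or 73.3%, against 44.8% of the 11329 genes at or above the floor. Their median log2 ratio was 0.18, against -0.02 over those genes. Over all 37 it was 0.20 with 27 above 0, against -0.01 and 47.3% above 0 over all 18193 genes. At least 2-fold higher were Egfl6 and Col4a1, 2 of 30 or 6.67%, against 0.653% of all genes, and none of the 30 was at least 2-fold lower, against 0.256%. At 1.5-fold, 6 were higher (20%, against 1.7% of all genes) and 1 was lower (against 2.02%). The 4 added at this threshold were Col4a2, Lama4, Lamb1 and Pxdn, and Ntn4 was the lower one. Lama4 at 1.51-fold and Pxdn at 1.52-fold lay just inside it, and Col18a1 at 1.49-fold and Nid1 at 1.47-fold just outside. Whether the list differs from other genes was not tested.

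**Figure D1:**
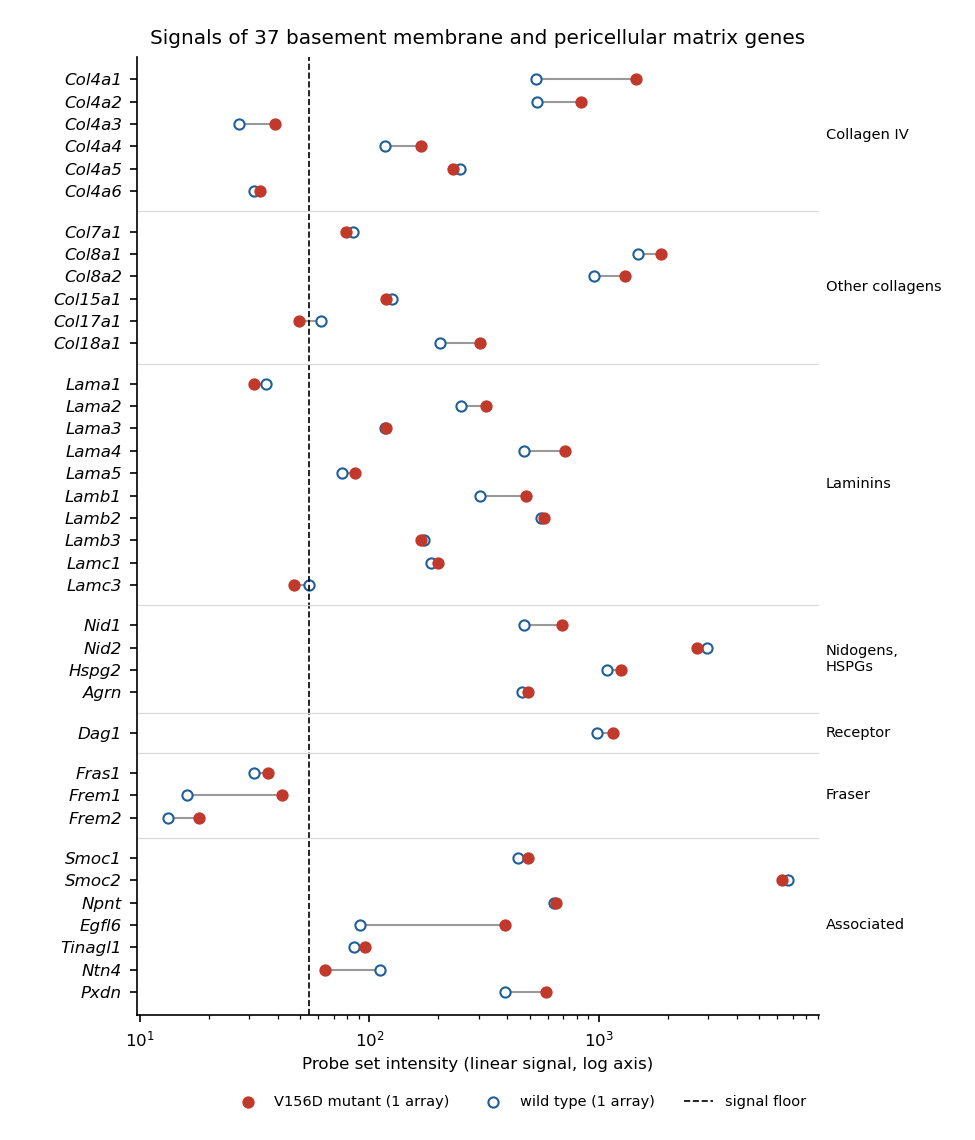
Probe set intensity of each of the 37 genes (log axis) in the mutant array (filled red) and the wild-type array (open blue), grouped by role, with the signal floor dashed. The longest line among genes above the floor belongs to Egfl6, at 391 in the mutant and 91.2 in wild type, followed by Col4a1, while Npnt, Lama3 and Lamb2 have nearly coinciding points. Each point is 1 array, so no error bar can be drawn, and intensities of different probe sets are not comparable with each other.

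The 6 collagen IV genes lie in 3 head-to-head pairs in the mouse genome, each pair running outward from a shared region. Sequences before the starts of 4 genes are printed because these genes frame the results: Col4a1, which shares its start region with Col4a2 and was the collagen higher by more than 2-fold, the pair Col4a5 and Col4a6, which had log2 ratios near 0, and Egfl6, the gene with the highest ratio. They are the 250 bases before each RefSeq start (GRCm38.p6), written 5′ to 3′ on the gene's strand, and capitals mark matches to CCAAT or GGGCGG, or to their reverse complements.
Col4a1, chr8:11312827-11313076, minus strand: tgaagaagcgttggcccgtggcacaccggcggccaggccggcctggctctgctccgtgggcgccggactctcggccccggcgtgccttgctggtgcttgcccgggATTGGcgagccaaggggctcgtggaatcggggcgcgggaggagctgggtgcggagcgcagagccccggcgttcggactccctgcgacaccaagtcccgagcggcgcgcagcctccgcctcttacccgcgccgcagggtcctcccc
Col4a5, chrX:141475169-141475418, plus strand: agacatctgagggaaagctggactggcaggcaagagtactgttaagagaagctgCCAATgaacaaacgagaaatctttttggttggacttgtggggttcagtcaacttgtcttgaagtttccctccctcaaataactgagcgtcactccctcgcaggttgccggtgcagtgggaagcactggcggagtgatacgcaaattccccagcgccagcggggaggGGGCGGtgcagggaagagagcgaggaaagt
Col4a6, chrX:141474077-141474326, minus strand: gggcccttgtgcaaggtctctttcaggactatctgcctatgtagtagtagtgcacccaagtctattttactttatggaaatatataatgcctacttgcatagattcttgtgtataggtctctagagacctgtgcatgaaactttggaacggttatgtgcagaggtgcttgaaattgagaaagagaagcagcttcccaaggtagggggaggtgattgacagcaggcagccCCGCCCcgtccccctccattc
Egfl6, chrX:166585717-166585966, minus strand: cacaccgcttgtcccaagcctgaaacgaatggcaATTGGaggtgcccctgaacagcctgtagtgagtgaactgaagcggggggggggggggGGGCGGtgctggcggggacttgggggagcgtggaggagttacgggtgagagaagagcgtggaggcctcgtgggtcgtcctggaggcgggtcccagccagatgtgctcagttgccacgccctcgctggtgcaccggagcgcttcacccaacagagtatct

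The annotated starts of Col4a1 and Col4a2 lie 21 bases apart on opposite strands, so that the bases before the Col4a1 start lie in the transcribed part of Col4a2. The starts of Col4a5 and Col4a6 lie 1343 bases apart. The Col4a1 window held 1 CCAAT match, on the opposite strand, and no GGGCGG, whereas Col4a5 and Egfl6 held 1 of each and Col4a6 held 1 GGGCGG. Of the windows not printed, that of Col4a2, also higher in the mutant, held 1 CCAAT and 2 GGGCGG. That of Col4a4 held no match. Whether matches went with the ratios was not tested. Over the 34 windows found for 27 of the 37 genes, 38.2% held CCAAT, against 33.9% of all 32851 windows and 35.4% of the 21263 windows of protein-coding genes. GGGCGG was in 58.8% of the windows of these genes, against 32.7% of all windows and 42.6% of protein-coding ones. TATAAA, searched on both strands as well, was in 1 of the 34 windows, or 2.94%, against 12.4% and 11.6%. Matches did not overlap each other in the printed windows, and a match only describes the letters of a window.

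Of the collagen IV chains at or above the floor, those of the widespread α1α1α2 trimer had the highest log2 ratios. Only Col4a1 stood apart, since Col4a2 at 0.64 lay close to Col4a4 at 0.53. Col4a1, which encodes the α1 chain, had an intensity of 1459 in the mutant and 532 in wild type, 2.74-fold higher. Its other probe set gave 536 in the mutant and 198 in wild type, so the log2 ratios of 1.45 and 1.43 nearly coincided. In the order of all genes at or above the floor, Col4a1 was number 24 of 11329 from the highest. Col4a2, which encodes the α2 chain of the same trimer, had 840 in the mutant and 539 in wild type, a log2 ratio of 0.64. It was number 167 in that order. Both genes of this pair were thus higher, Col4a1 by more than Col4a2.

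The chains of the more restricted collagen IV trimers had smaller ratios or signals below the floor. Col4a4, whose α4 chain is best known from the kidney filter, had 169 in the mutant and 116 in wild type, a log2 ratio of 0.53. Its second probe set above the floor gave 0.38 and another below it gave -0.05. Col4a3, its head-to-head partner, was below the floor, with 38.9 in the mutant and 26.9 in wild type. Col4a5, the α5 chain that joins either α3 and α4 or α6, had 232 in the mutant and 249 in wild type, and its probe sets gave -0.10 and 0.03, so its direction was not settled. The α6 gene Col4a6 had 33.4 in the mutant and 31.3 in wild type, below the floor in both. Col4a5 and Col4a6 lie on the X chromosome.

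The other collagens divided into 3 with ratios above 0 and 3 below. Col8a1 and Col8a2 encode the short chains of collagen VIII, known from the corneal Descemet's membrane and from vessel walls. Col8a1 had 1871 in the mutant and 1480 in wild type, and its 3 probe sets had a mean log2 ratio of 0.32 ± 0.10 (SD between these probe sets, which is no error between samples). Col8a2 had 1299 in the mutant and 952 in wild type, a log2 ratio of 0.45. Col18a1 encodes collagen XVIII, a vessel and epithelial basement membrane collagen from which endostatin is cut. It had 303 in the mutant and 204 in wild type, a log2 ratio of 0.57, while its second probe set gave 0.24. Col15a1, the related collagen XV of muscle and capillaries, had 119 in the mutant and 125 in wild type, a log2 ratio of -0.07. The epidermal collagens were the lowest. Col7a1, the collagen of skin anchoring fibrils, had 79.2 in the mutant and 85.3 in wild type, and Col17a1, a transmembrane collagen of hemidesmosomes, had 49.4 in the mutant and 61.6 in wild type, so only its wild-type value exceeded the floor.

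Among the laminins, each of which is a trimer of an α, a β and a γ chain, Lama4 and Lamb1 had the highest ratios. Lama4, the α4 chain typical of vessel walls, had 709 in the mutant and 470 in wild type, a log2 ratio of 0.59. Its dimmer probe set, below the floor, gave 0.75. Lamb1, the widespread β1 chain, had 483 in the mutant and 303 in wild type. Of its 4 probe sets, those at or above the floor gave log2 ratios of 0.67 and 0.83, and those below it gave 0.84 and 0.12. Lamc1, the γ1 chain found in most laminins, was less clear. It had 200 in the mutant and 185 in wild type by its brighter probe set, a log2 ratio of 0.11, but 102 in the mutant and 64.1 in wild type by the other, a log2 ratio of 0.68.

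The remaining laminin chains had smaller ratios. Lama2, the α2 chain of muscle and nerve, had 323 in the mutant and 252 in wild type, a log2 ratio of 0.36 from 1 probe set. Lama5, the α5 chain of many adult basement membranes, had 86.9 in the mutant and 75.8 in wild type, a log2 ratio of 0.20. Lamb2, a β chain of nerve-muscle junctions and kidney, had 580 in the mutant and 558 in wild type, a log2 ratio of 0.05. Lama3 and Lamb3, which encode chains of the epithelial laminin-332, also stayed near 0. Lama3 had 119 in the mutant and 117 in wild type, and Lamb3 had 168 in the mutant and 173 in wild type. Lama1, an early embryonic α chain, and Lamc3 were below the floor, with log2 ratios of -0.17 and -0.21.

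**Figure D2:**
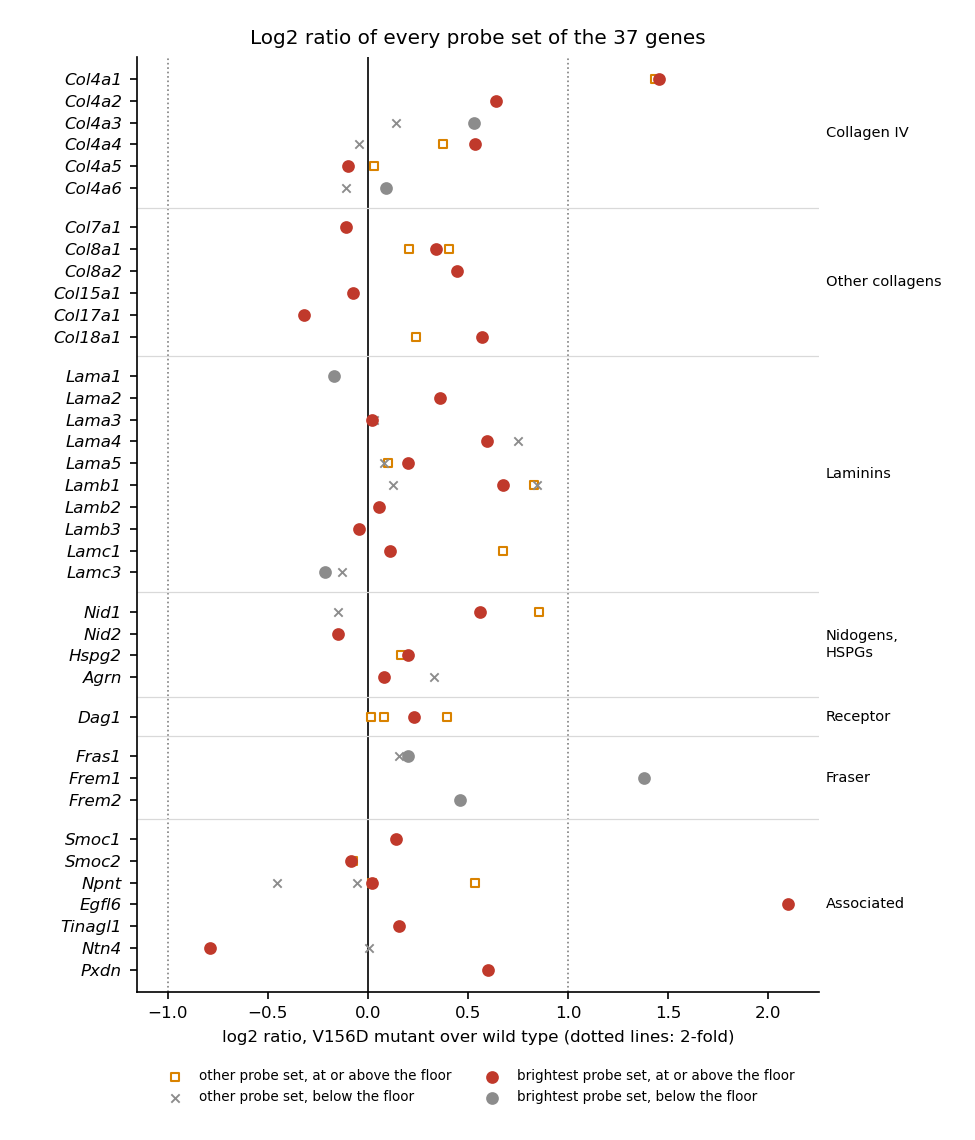
Log2 ratio of mutant over wild type (horizontal axis) for every probe set of the 37 genes, with the brightest probe set of each gene as a filled circle and others as squares or crosses. Both Col4a1 points lie beyond the 2-fold line at 1, and the points of Lamc1, Nid1, Npnt and Ntn4 are spread widely. The spread of points within a gene is probe disagreement within this pair of arrays and not error between samples.

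The nidogens, which tie laminin to collagen IV, had unlike ratios. Nid1 had 694 in the mutant and 471 in wild type, a log2 ratio of 0.56, and its second probe set gave 169 in the mutant and 93.3 in wild type, or 0.85, while a dim one below the floor gave -0.15. Nid2 had 2685 in the mutant and 2973 in wild type, a log2 ratio of -0.15 from its only probe set. The large heparan sulphate proteoglycans were close to 0. Hspg2, the gene of perlecan, a main proteoglycan of the chondrocyte coat, had 1255 in the mutant and 1090 in wild type, and its 2 probe sets gave log2 ratios of 0.20 and 0.17. Agrn, the gene of agrin, had 490 in the mutant and 462 in wild type, a log2 ratio of 0.08. Dag1, which encodes dystroglycan, a laminin, perlecan and agrin receptor, had 1149 in the mutant and 980 in wild type. The 4 Dag1 probe sets averaged 0.18 ± 0.17 (SD between probe sets).

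Egfl6 had the highest log2 ratio of all 11329 genes at or above the floor, 2.10. This secreted protein with EGF-like repeats is a relative of nephronectin, and both bind integrins through an RGD sequence. Its intensity was 391 in the mutant and 91.2 in wild type, both above the floor, and it had only 1 probe set, so no second measurement exists. Npnt, the gene of nephronectin, had 649 in the mutant and 639 in wild type, a log2 ratio of 0.02. A further 2 Npnt probe sets at or above the floor gave 0.02 and 0.53, and a pair below it gave -0.05 and -0.45. The relatives therefore had unlike ratios.

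Because Egfl6 lies on the X chromosome, its ratio was set beside sex-linked transcripts. Xist, transcribed from the inactive X, had 5006 in the mutant and 7755 in wild type, and the Y-linked Eif2s3y had 490 in the mutant and 230 in wild type. The 343 X-linked genes at or above the floor had a median log2 ratio of -0.01. Of them 3, Egfl6 included, were at least 2-fold higher, or 0.875%, against 0.653% of all genes at or above the floor. The part of the sexes of the pools in the Egfl6 ratio was not tested.

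The other associated proteins ranged from a cross-linking enzyme that was higher to a netrin with the lowest ratio. Pxdn, the gene of peroxidasin, which cross-links collagen IV, had 591 in the mutant and 389 in wild type, a log2 ratio of 0.60 from 1 probe set. Ntn4, a laminin-binding netrin, had 64.3 in the mutant and 111 in wild type, 1.73-fold lower and number 80 of 11329 from the lowest. Its other probe set, below the floor, gave 0.01. Smoc1 and Smoc2 encode calcium-binding matrix proteins of the SPARC family. Smoc1 had 493 in the mutant and 447 in wild type, a log2 ratio of 0.14. Smoc2 had 6313 in the mutant and 6679 in wild type, and its probe sets gave -0.08 and -0.07, a direction that became 0.00 after quantile normalization. Tinagl1, a tubulointerstitial nephritis antigen-like protein, had 95.6 in the mutant and 85.8 in wild type.

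The Fraser complex genes encode large proteins that anchor embryonic epithelia, and all 3 were below the floor. Frem1 had 41.6 in the mutant and 16 in wild type from its only probe set. Frem2 had 18.2 in the mutant and 13.2 in wild type, and Fras1 had 36.1 in the mutant and 31.4 in wild type. At such signals the arrays do not show whether the genes were expressed.

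**Figure D3:**
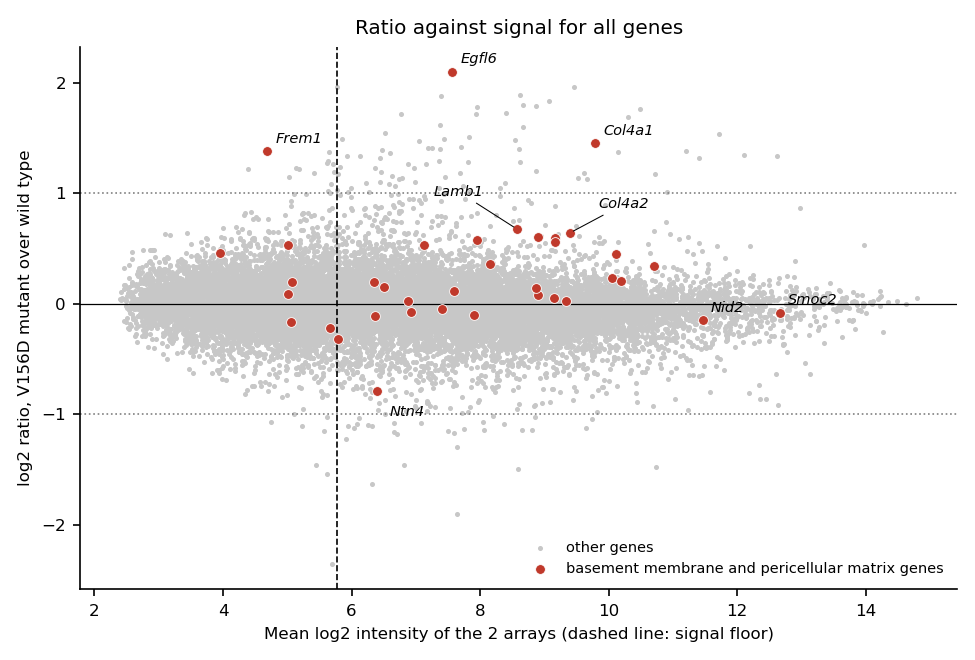
Log2 ratio of mutant over wild type against mean log2 intensity for all genes (grey) and for the basement membrane and pericellular matrix genes (red), with the floor dashed and 2-fold differences dotted. Egfl6 at 2.10 and Col4a1 at 1.45 stand above the 2-fold line, as does Frem1 at 1.38 to the left of the floor line, and Ntn4 at -0.79 is the lowest red point.

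Where several probe sets of a gene reached the floor, they mostly had 1 direction. Of the 13 genes for which several probe sets reached the floor, 12 had 1 sign in all of them, or 92.3%, and Col4a5 was the exception. Over all genes the share was 2560 of 4878, or 52.5%. Probe sets below the floor are left out of these counts. Such probe sets had the other sign for Col4a4, Nid1, Npnt and Ntn4, and those of Col4a6 gave 0.09 and -0.11. The difference between the 2 brightest probe sets of a gene had an SD of 0.26 over all genes on the log2 scale, which measures probe error within these arrays. Of the 30 genes, 16 had log2 ratios within 0.25 of 0, which is no larger than this disagreement. The remaining 14 were Col4a1, Col4a2, Col4a4, Lama2, Lama4, Lamb1, Nid1, Col8a1, Col8a2, Col18a1, Pxdn and Egfl6 on the higher side, and Ntn4 and Col17a1 on the lower side. The share of all genes beyond 0.25 was not counted. The log2 ratio itself had an SD of 0.27 over all genes at or above the floor, so this cut alone sets no gene apart. Ntn4 also had a probe set below the floor at 0.01, and the mutant value of Col17a1 was below the floor.

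Markers of vessels and of fibrous tissue also differed between the arrays. All 12 endothelial markers had log2 ratios above 0, against 47.3% of all genes without a floor. The 7 at or above the floor had a median of 0.94. The summed intensity of the 12 was 1276 in the mutant and 766 in wild type. Cdh5, the cadherin of vessel walls, had 144 in the mutant and 55.1 in wild type, and no marker was listed at 0, but Vwf and Tie1 were below the floor in both arrays. Of 10 mural cell markers 8 were above 0, with a median of 0.13 over the 8 at or above the floor, or 0.36 over 5 when probe sets named _s_at, _x_at or _a_at were left out, and they summed to 4896 in the mutant and 4191 in wild type. The pericyte marker Rgs5 had 626 in the mutant and 224 in wild type, whereas Cnn1, a smooth muscle calponin, had 69.6 in the mutant and 147 in wild type.

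Of 12 fibroblast, tendon and perichondrial markers, all at or above the floor, 11 were above 0, or 91.7%, against 44.8% of all genes there. The 12 had a median of 1.08 and summed to 67475 in the mutant and 40031 in wild type. Like the sums of the other marker lists, this one weighs the brightest probe sets most. Col1a1, a chain of collagen I, had 7010 in the mutant and 2759 in wild type, and Pdgfra had 541 in the mutant and 579 in wild type. Their part and that of the vascular markers in the ratios of Col4a1, Col4a2, Lama4, Lamb1, Nid1, Col18a1, Pxdn and Egfl6 was not tested. In a pooled preparation such as this, more cells of a type and more RNA per cell cannot be told apart.

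Other basement membrane genes outside the list of 37 were examined by role. Among 15 further basement membrane proteins with a value, 8 were at or above the floor. Of these 8, 6 had ratios above 0, or 75%, against 44.8% of all genes at or above the floor. At least 2-fold higher were 2 of the 8, or 25%, against 0.653%. Hmcn1, which encodes the giant matrix protein hemicentin-1, had 155 in the mutant and 60.3 in wild type, and Fbln2, which encodes fibulin-2, had 237 in the mutant and 115 in wild type, while its second probe set, far below the floor, gave -0.06. With the mean over probe sets, without probe sets named _s_at, _x_at or _a_at, or with an offset of 32 before log2, 1 gene of this list was 2-fold higher. The lowest were Vwa1, whose product binds perlecan in the chondrocyte coat, at -0.21, and Sparc, a collagen-binding protein, at -0.00. The median of the 8 was 0.51, but 0.20 over the 5 that reached the floor with the mean over probe sets, and 0.21 over all 15.

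Among 23 receptors with a value, 16 were at or above the floor, with a median of 0.14. Of these 16, 13 had ratios above 0, or 81.25%, against 44.8% of all genes at or above the floor. Itga8, the integrin chain that with β1 binds nephronectin, was 2.50-fold higher, at 137 in the mutant and 54.9 in wild type, the wild-type value lying just above the floor. A second Itga8 probe set, below the floor, gave 0.52, and Itga8 was not 2-fold higher with the mean over probe sets or the offset. Itga7, a laminin-binding chain of muscle, had 71.0 in the mutant and 47.1 in wild type, where it was below the floor. The shared β1 chain Itgb1 had 1124 in the mutant and 1081 in wild type. Ddr1 and Ddr2, the collagen-binding receptor kinases, were lowest, with Ddr1 at 1051 in the mutant and 1254 in wild type and Ddr2 at a log2 ratio of -0.19. The second Ddr2 probe set gave 0.02.

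The 24 measured enzymes of assembly, glycan synthesis and turnover had a median log2 ratio of -0.01, with 12 above and 12 below 0 and none 2-fold apart. The share above 0 was 50%, against 44.8% of all genes at or above the floor. After quantile normalization 16 were above 0, against 51.5% of all genes, and the median was 0.05. The direction of this list was thus not settled. Mmp14, a membrane-bound protease, had 706 in the mutant and 482 in wild type, a log2 ratio of 0.55, and B4gat1, which acts on the sugar chain of dystroglycan, had 0.34. Tll1, a protease related to BMP1, was lowest at -0.74, with 55.4 in the mutant and 92.7 in wild type, and the heparan sulphate sulphotransferase gene Hs6st1 had -0.47.

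**Figure D4:**
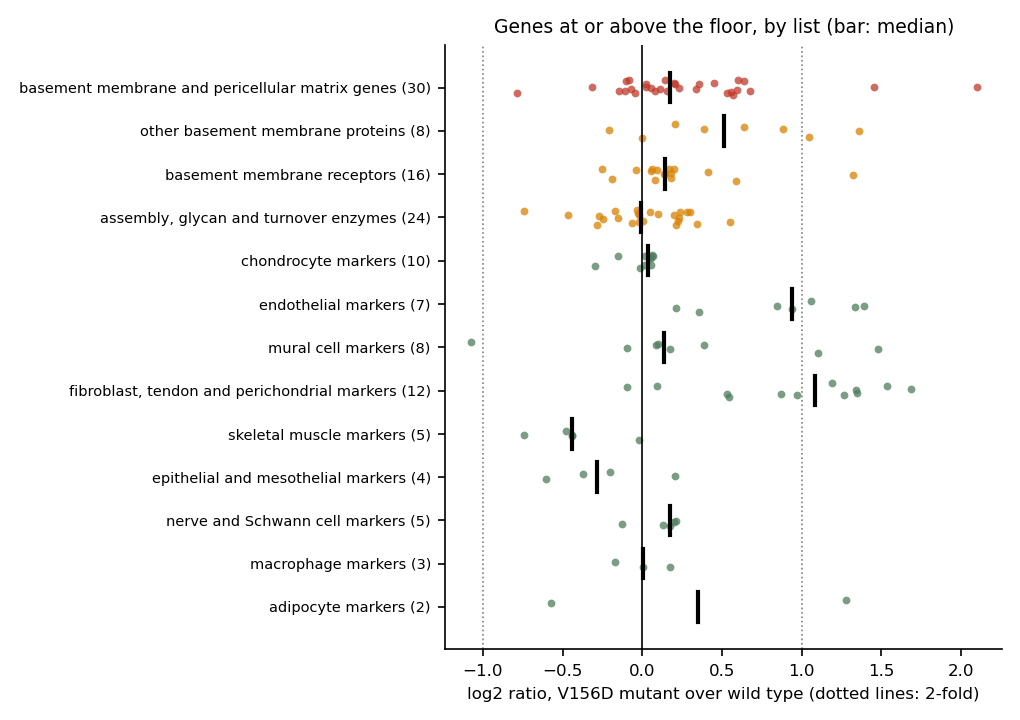
Log2 ratio of mutant over wild type for each gene at or above the floor (points), by list, with list medians as bars and the number of genes in brackets. The basement membrane and pericellular matrix genes (red) have a median of 0.18, the enzymes lie around -0.01, and the endothelial and the fibroblast, tendon and perichondrial markers reach medians of 0.94 and 1.08.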

How the data were processed

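The authors deposited linear intensities, 1 for each probe set and array, for which the submitters' processing notes name MAS5 without version or settings. Per the labels' protocols, 6 µg of total RNA was labelled for each array. How the arrays were scaled is not stated in the sources used here, and the values leave the summary method unsettled. The log2 of 100% of them had at most 5 decimals, as a summary on the log2 scale would give. The SD of the log2 ratio was 0.17 in the dimmest of 10 equal bins of probe sets and 0.24 in the brightest, whereas MAS5 usually scatters most at low signal, so ratios of dim probe sets may be compressed. Names came from the platform annotation held by GEO. Of 45037 probe sets, 34945 had 1 symbol, 932 had several and 9160 had none, and only the first kind was used. Of these, 34741 were found by Entrez identifier in RefSeq (GRCm38.p6), with no change of symbol.

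From the deposited intensities, log2 values were taken without further normalization, and the log2 ratio is mutant minus wild type. Precision is limited by the number of arrays. Alternatives changed the gene summary, scaling, offset, floor and threshold. The counting was tested on simulated data. Promoter windows of 250 bases before and 50 after each start come from RefSeq, and only the bases before the start were searched.

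The genes, the further lists and the rules were chosen with earlier results of these data known. All 37 genes were named, with the 2 highest and 2 lowest at or above the floor of each further list of proteins, receptors and enzymes. Itgb1 and the single markers of other cell types were named after their values were seen. Of 161 entries in the further lists, those without a probe set of their own were left out. Python 3.11.15, numpy 2.4.6, pandas 2.3.3, statsmodels 0.14.6 and matplotlib 3.10.9 were used.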

Additional observations from a re-analysis of the deposited data

How the results depend on the processing

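Egfl6 and Col4a1 were the genes at least 2-fold higher under every change of gene summary, scaling, offset or floor, joined by Frem1 when no floor was set, which made 3. At a threshold of 3-fold 1 gene was higher, and at 1.5-fold 6 were higher and 1 was lower. The 6 became 4 after centring on the array median or with an offset of 32, without Lama4 and Pxdn, and 8 after quantile normalization or the loess correction (span 0.3), with Col18a1 and Nid1. Over all genes, the counts at least 2-fold higher and lower were 74 and 29, but 45 and 13 with the offset, 193 and 229 at 1.5-fold, and 16 and 2 at 3-fold. Between 21 and 27 genes had ratios above 0, of 26 to 37 counted, or 71.0% to 80.8%, and their median ranged from 0.14 to 0.21. The share of all genes above 0 also moved, from 40.6% after centring on the array median to 51.5% after quantile normalization. Part of the stability of single values was fixed in advance. A gene with 1 probe set keeps its value under the mean over probe sets, and centring shifts all genes alike. Dropping probe sets by name leaves most of the genes as they were. Of 177 single values recomputed for the 30 genes, 174 moved by less than the SD between probe sets. The other 3 were Egfl6, at 1.78 with the offset, and, as means over probe sets, Lamc1 at 0.40 and Ntn4 at -0.39. Smoc2 alone changed sign, to 0.00 after quantile normalization. No paired analysis was possible because each genotype had 1 array, so leaving out an array was not possible either. Genes near or below the floor are limited by signal over background.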

Other observations

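Lists for cells not described above had at most 5 markers each at or above the floor. All 5 skeletal muscle markers at or above the floor had log2 ratios below 0, against 6231 of the 11329 genes at or above the floor. The median of the 5 was -0.44, with Ckm at -0.02. With the mean over probe sets, 3 of these markers reached the floor and 1 of them was above 0. Over all 10 with a value the median was -0.07, and 3 were above 0. The fast troponin gene Tnnt3 had 1388 in the mutant and 1930 in wild type. Among 10 epithelial and mesothelial markers, 4 were at or above the floor, with a median of -0.29, and only Upk3b, at 0.20, was left when probe sets named _s_at, _x_at or _a_at were dropped. Cdh1, the epithelial cadherin, had 32 in the mutant and 71.0 in wild type, with a mean signal under the floor. The keratin genes Krt5 and Krt14, of the epidermal cells that make Col7a1, Col17a1 and laminin-332, were under the floor in both arrays. Other epithelial and mesothelial markers did reach the floor. Epcam had 598 in the mutant and 773 in wild type, Krt8 had 116 in the mutant and 133 in wild type, and Wt1 had a log2 ratio of -0.60. Of 8 macrophage markers, 3 were at or above the floor, with a median of 0.01. The 5 nerve and Schwann cell markers with a value were all at or above the floor and had a median of 0.18. Sox10 had 106 in the mutant and 93.7 in wild type. Of the adipocyte markers with a value, Adipoq, Cidec and Lep were under the floor in both arrays, Lpl, a lipase made by several cell types, was 2.42-fold higher and Pparg had a log2 ratio of -0.57.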
